A study of Mus musculus with 8 samples.

Results

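The nuclear genes of the mitochondrial respiratory chain and ATP synthase were examined for PRDM16 binding in the mouse cortex at E15.5. They were chosen by symbol: protein-coding RefSeq genes starting Nduf, Sdha, Sdhb, Sdhc, Sdhd, Uqcr, Atp5, or Cox followed by 4, 5, 6, 7 or 8. That gave 100 of 21887 protein-coding genes on chromosomes 1 to 19, X and Y. By their letters the symbols also take in 8 complex I assembly factors (Ndufaf) and 4 complex II assembly factors (Sdhaf). PRDM16 is a zinc-finger transcription regulator, and its binding was mapped by chromatin immunoprecipitation and sequencing (ChIP-seq) of whole cortex lysates. The wild-type (WT) embryos were Prdm16 flox/flox and carried no Cre allele in their label. The conditional knockout (cKO) embryos were Emx1Ires-Cre; Prdm16flox/flox, so both genotypes carried the floxed allele. Emx1 drives Cre in the dorsal telencephalic lineage, and interneurons, microglia and vessel cells of the cortex arise elsewhere and keep the allele. Peak lists of 2 ChIP libraries per genotype were used, and the input libraries were not analysed here. In whole tissue, weaker binding and binding in fewer cells cannot be told apart. Whether the peaks of the cKO libraries mark PRDM16 itself was not tested.

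The respiratory chain passes electrons from NADH (complex I) and succinate (complex II) through ubiquinone, complex III and cytochrome c to oxygen at complex IV. The proton gradient that this builds drives ATP synthase. Most subunits are encoded in the nucleus, and many of their promoters are textbook targets of the nuclear respiratory factors NRF1 and GABP, the latter of the ETS family. PRDM16 is best known in brown fat, where it promotes mitochondrial and heat-producing genes, and in neural stem cells it has been linked to control of reactive oxygen species.

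WT replicates 1 and 2 had lists of 13852 and 26652 peaks, while those of cKO replicates 1 and 2 had 4553 and 3088. The lowest local background behind any peak of a list stood at 0.777 and 1.78 reads per base for WT replicates 1 and 2, and at 2.95 and 2.52 for the cKO ones. At Prdm16 itself the WT libraries had 16 and 22 peaks and each cKO library had 2. The peak names of the WT lists carry a library identifier and a run folder that those of the cKO lists lack, so genotype cannot be told apart from what these mark. Nothing in the labels says whether the 2 libraries of a genotype came from separate embryos. With 2 libraries against 2, an exact two-sided permutation test cannot go below p = 0.333. The gene-level results are therefore counts of genes whose WT and cKO libraries did not overlap, each set beside the same share over all protein-coding genes.

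Promoter peaks recurred at a few respiratory chain genes, and 6 promoters show the 3 patterns. Ndufv2, Ndufb7 and Atp5g2 had a peak at the start of the gene in all 4 libraries, Ndufc1 and Ndufab1 in both cKO libraries and neither WT library, and Ndufv1 in both WT libraries and neither cKO library. Counted within 1 kb of a gene end, the first pattern, with Ndufa4l2 included, held at 4% of the 100 genes, against 0.653% of all. The cKO-only pattern held at 2.00% against 1.48%, and the WT-only pattern at 1.00% against 2.24%. Ndufc1 left its pattern at a stricter q-value. The 6 promoters are thus examples, and these shares do not make them classes of genes. The 250 bases before each RefSeq start (GRCm38.p6, the mm10 assembly) are printed 5′ to 3′ on the gene's own strand. They lie at chr17:66101560-66101809, chr8:83566508-83566757, chr15:102671048-102671297, chr3:51408956-51409205, chr7:122101849-122102098 and chr19:4012756-4013005, in the order of the lines, on the plus strand for Ndufb7 and the minus strand for the others. Capitals mark matches on either strand to the NRF1 consensus (a palindrome, the only match in the Atp5g2 line), CCGGAAG (ETS), AAGATGGC (YY1), GGGCGG (SP) or CCAAT.
Ndufv2: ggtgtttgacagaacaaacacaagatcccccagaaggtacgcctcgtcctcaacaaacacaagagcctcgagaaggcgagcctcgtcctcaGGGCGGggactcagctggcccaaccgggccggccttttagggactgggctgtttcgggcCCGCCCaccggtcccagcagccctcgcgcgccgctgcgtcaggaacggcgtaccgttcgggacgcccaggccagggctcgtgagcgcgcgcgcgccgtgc
Ndufb7: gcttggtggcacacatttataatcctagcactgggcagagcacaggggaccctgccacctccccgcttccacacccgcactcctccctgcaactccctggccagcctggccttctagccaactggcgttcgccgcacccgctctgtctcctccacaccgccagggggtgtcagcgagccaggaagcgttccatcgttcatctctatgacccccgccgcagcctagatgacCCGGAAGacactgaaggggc
Atp5g2: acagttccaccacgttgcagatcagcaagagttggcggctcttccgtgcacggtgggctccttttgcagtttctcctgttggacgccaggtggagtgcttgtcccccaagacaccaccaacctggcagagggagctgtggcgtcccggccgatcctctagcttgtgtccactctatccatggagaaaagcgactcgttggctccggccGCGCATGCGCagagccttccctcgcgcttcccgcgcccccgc
Ndufc1: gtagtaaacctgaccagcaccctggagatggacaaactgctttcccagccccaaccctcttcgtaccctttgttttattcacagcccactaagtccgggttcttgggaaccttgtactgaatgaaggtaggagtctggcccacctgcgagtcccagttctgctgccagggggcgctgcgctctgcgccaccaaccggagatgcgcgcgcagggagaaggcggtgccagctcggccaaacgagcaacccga
Ndufab1: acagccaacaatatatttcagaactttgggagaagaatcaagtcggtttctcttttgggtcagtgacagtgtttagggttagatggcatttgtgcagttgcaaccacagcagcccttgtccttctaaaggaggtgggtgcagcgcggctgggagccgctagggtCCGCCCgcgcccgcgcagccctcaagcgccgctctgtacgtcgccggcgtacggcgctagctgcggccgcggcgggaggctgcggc
Ndufv1: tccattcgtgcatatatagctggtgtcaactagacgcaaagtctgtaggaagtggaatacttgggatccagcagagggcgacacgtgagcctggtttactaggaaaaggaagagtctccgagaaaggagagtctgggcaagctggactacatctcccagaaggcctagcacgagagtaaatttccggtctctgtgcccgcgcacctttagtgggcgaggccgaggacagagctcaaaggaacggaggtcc
Ndufv2 holds 2 matches to the SP letters and Ndufab1 holds 1, in bases 86 to 81 before the start. Atp5g2 holds the NRF1 letters at bases 42 to 33 before its start, and Ndufb7 the ETS letters at bases 20 to 14. No letters of this set occur before the starts of Ndufc1 and Ndufv1. GC content ran from 53.6% in Ndufv1 to 68.0% in Ndufv2.

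In the full lists, peaks at respiratory chain genes were fewer in cKO than in WT. The 2 genotypes separated away from gene ends but not at them. The same held over all protein-coding genes. A peak was given to a gene when its summit lay in the gene, or within 100 kb of its nearer end with no protein-coding gene closer. A gene-end peak had its summit within 1 kb of either annotated end. WT replicates 1 and 2 held 29 and 36 peaks at these genes, while cKO replicates 1 and 2 held 22 and 18. Both WT counts lay above both cKO counts, with means of 32.5 ± 4.95 and 20 ± 2.83 (SD, n = 2 each) and a ratio of 1.63. Over all protein-coding genes the same ratio was 4.58. The order depends on the full lists: with each list cut to its 3088 most significant peaks the log2 ratio went from 0.70 to -4.09, and away from gene ends from 1.84 to -2.46.

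Gene-end peaks of the respiratory chain numbered 13 and 9 in WT and 15 and 13 in cKO. The 2 genotypes met at 13, and the means of 11.0 ± 2.83 and 14.0 ± 1.41 (SD, n = 2 each) gave a WT to cKO ratio of 0.786. Over all genes that ratio was 1.32, and the counts overlapped too (1410 and 2656 in WT, 1840 and 1245 in cKO). Away from gene ends there were 16 and 27 peaks in WT against 7 and 5 in cKO, which do not overlap. The ratio was 3.58, and over all genes 6.94, where the counts did not overlap either (9977 and 19525 in WT, 2544 and 1705 in cKO). Genes with such a peak numbered 11 and 16 in WT (backgrounds of 20.2% and 29.3%) and 5 in each cKO library (9.57% and 6.89%). For gene-end peaks the difference between the means was close to the spread between replicates, and away from the ends it was larger than that spread.

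The share of these genes with a gene-end peak was above that of all protein-coding genes in 3 of the 4 libraries. Over the 4 libraries together, 27 genes had one (27%, against 19.9%). In WT replicate 1 the share was 13.0% of the 100 genes, against a background of 5.85%. In WT replicate 2, which has the longest list, it was 9% against 10.8%. The cKO libraries gave 15.0% against 8.02% and 12% against 5.53%. Respiratory chain genes are short and closely flanked: the median gene spanned 7337 bp, against 17169 bp over all genes. The median length of genome nearest to 1 of them was 17481 bp, against 45794 bp.

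**Figure D1:**
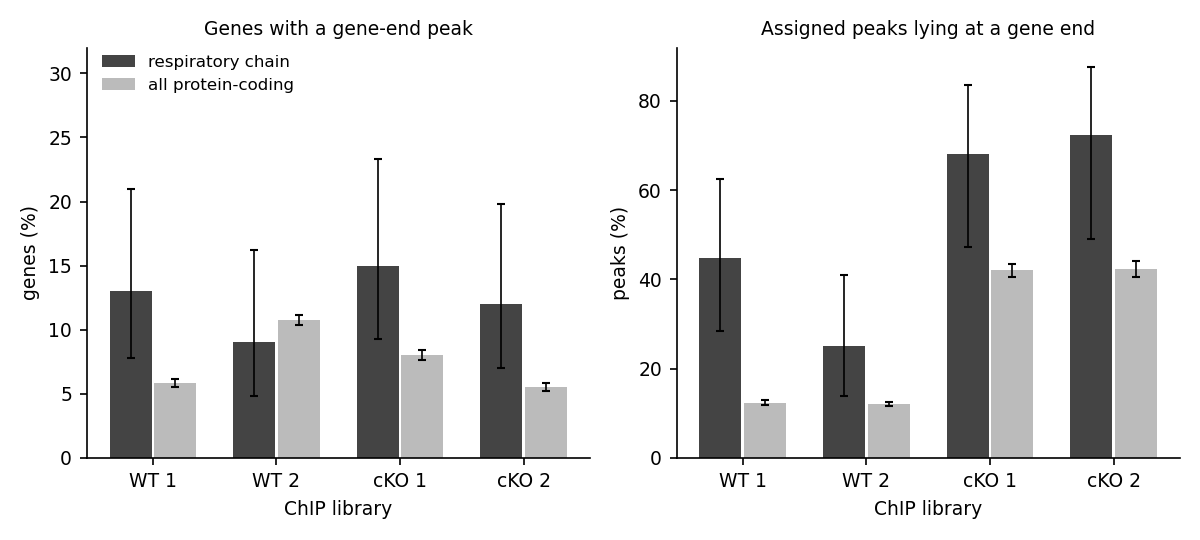
Left, percent of genes with at least 1 peak within 1 kb of a gene end, and right, percent of assigned peaks lying there, in each of the 4 ChIP libraries, for the 100 respiratory chain genes (dark) and all protein-coding genes (light); error bars are Wilson 95% intervals, which cover counting error only. At the left the dark bars stand at 13%, 9%, 15% and 12%, and only in WT 2 does the light bar exceed the dark one.

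Of the peaks assigned to these genes, 44.8% (Wilson 95% interval 28.4 to 62.5) lay at a gene end in WT replicate 1 and 25.0% (13.8 to 41.1) in WT replicate 2. In cKO replicates 1 and 2 the shares were 68.2% (47.3 to 83.6) and 72.2% (49.1 to 87.5). Both cKO shares lay above both WT shares. Over all protein-coding genes the shares were 12.4%, 12%, 42.0% and 42.2%, so the cKO lists leaned to gene ends genome-wide. Peaks away from gene ends were also set against the length of genome nearest to the genes, gene ends included. Per Mb, respiratory chain genes had 4.55 and 7.68 such peaks in the WT libraries, and all genes 5.17 and 10.1. In the cKO libraries the same rates were 1.99 and 1.42, and 1.32 and 0.884 over all genes. Gene ends take up more of the genome nearest to short genes, which lowers the respiratory chain rates, so the 2 sets are not strictly comparable.

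Most of the genes had no peak. In any library, 43 of the 100 had at least 1 peak (43.0%, against 43.9% of all protein-coding genes) and 57 had none. Of the 43, 21 had peaks in 1 library, 15 in 2, 2 in 3 and 5 in all 4 (5%, against 4.13%). More peaks in both WT libraries than in either cKO library were found for 10 genes (10%, against a background of 15.7%). The reverse was found for 3 genes (3%, against 1.70%), the same 3 that had peaks in both cKO libraries and none in WT (background 1.60%). Counts this small depended on the libraries: without WT replicate 1, and equally without WT replicate 2, the first count was 16 (backgrounds of 29.1% and 18.1%). Without cKO replicate 1 or cKO replicate 2 the second count was 6 or 12 (3.32% and 5.30%).

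**Figure D2:**
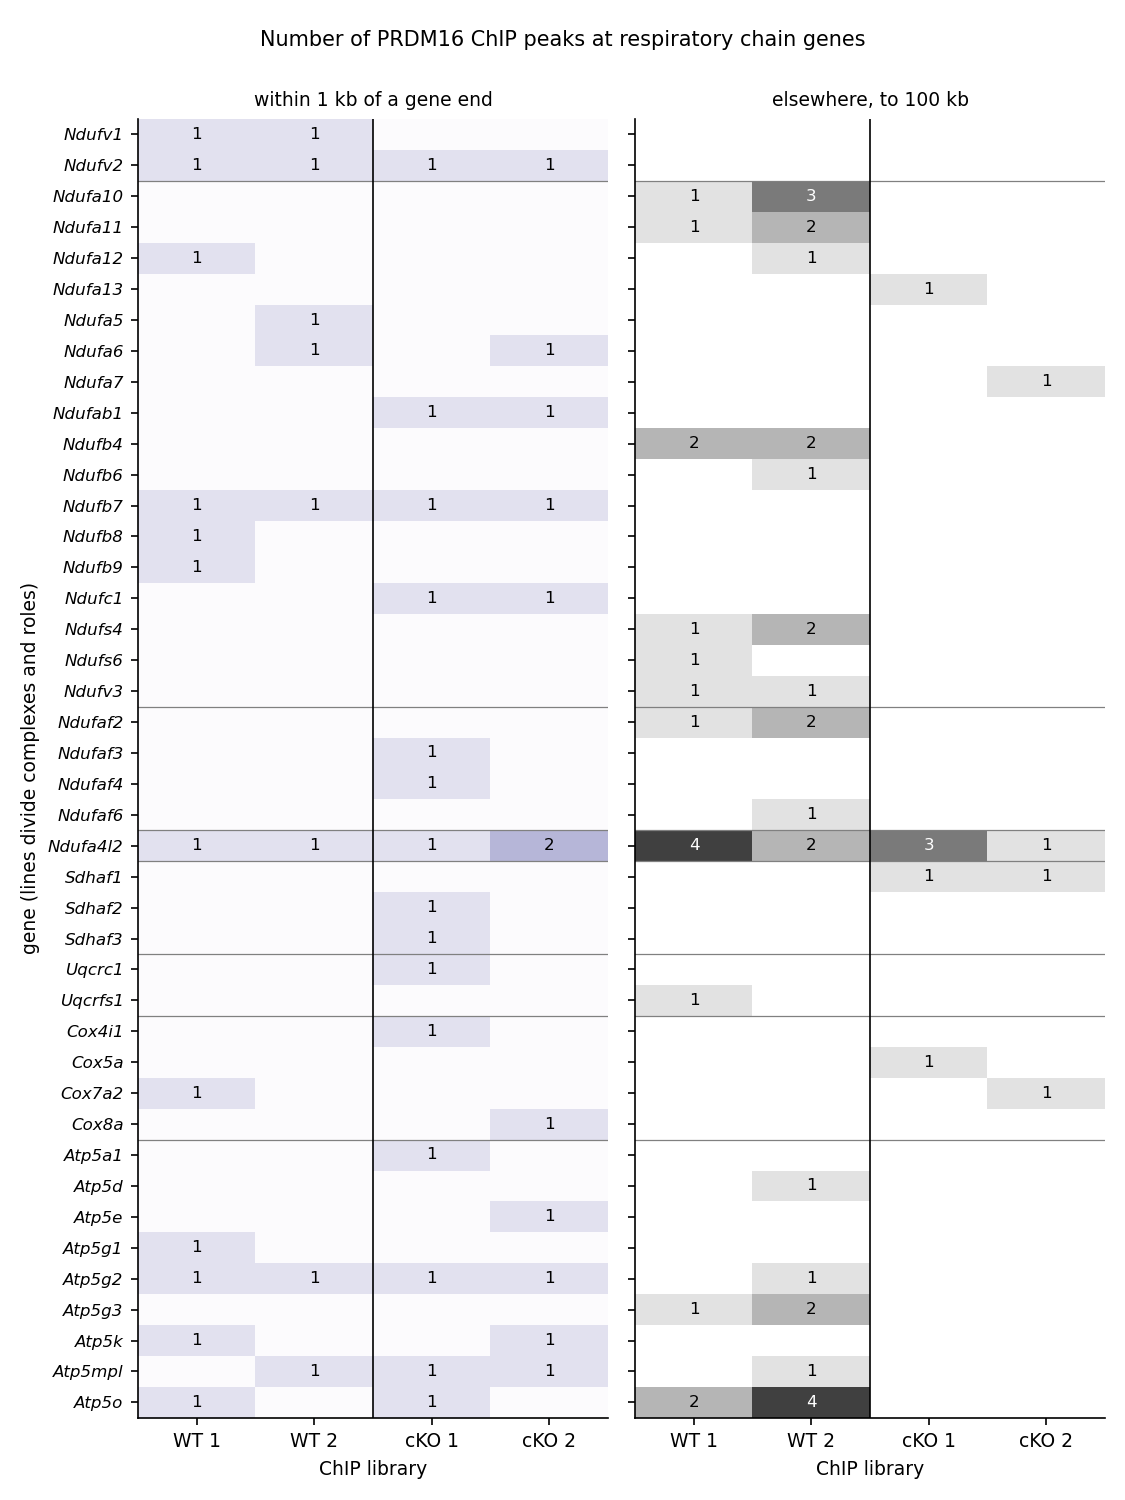
Number of peaks in each ChIP library (columns) at 42 respiratory chain genes with a peak (rows), within 1 kb of a gene end (left) and elsewhere up to 100 kb (right); horizontal lines divide the roles from complex I core subunits at the top to ATP synthase at the bottom, and empty cells are 0. Gene-end peaks appear in both genotypes, while at the right most filled cells outside Ndufa4l2 are in the WT columns.

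Gene-end peaks in all 4 libraries were seen at Ndufv2, Ndufb7, Atp5g2 and Ndufa4l2. These 4 genes are 4% of the respiratory chain genes, against 0.653% of all protein-coding genes. In each of the 4 genes these peaks joined, by overlaps of at least 1 bp, into 1 site. Ndufv2 encodes an iron-sulfur core subunit of the NADH-oxidising module of complex I. Its promoter peaks had a fold enrichment over local background of 6.77 and 7.05 in the WT libraries, against 6.06 and 4.21 in the cKO libraries. The WT summits lay 250 and 247 bp before the RefSeq start, and the cKO summits 71 bp before and 90 bp after it. Both genotypes thus had a peak there, with summits at different points of 1 stretch on chromosome 17 (66101403 to 66101973).

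Ndufb7 encodes a supernumerary subunit, outside the catalytic core, of the membrane arm of complex I. Its folds were 5.14 and 3.96 in WT and 8.31 and 6.51 in cKO. The summits lay 39, 155, 70 and 53 bp before the start in the same order, the cKO summits between the 2 WT ones. The reads stacked at the summit were 10 and 14 in WT, and 34 and 26 in cKO.

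Atp5g2 is a member of the trio Atp5g1, Atp5g2 and Atp5g3, which encode the same mature c subunit of the ATP synthase rotor. Its folds were 8.14 and 6.64 in WT and 4.94 and 8.35 in cKO, so the genotypes overlapped. The summits lay 84 and 100 bp before the start in WT, and 160 and 180 bp before it in cKO. The other two members differed from it: Atp5g1 had a gene-end peak in WT replicate 1 alone (4.22-fold). Atp5g3 had none at its ends, with 1 and 2 peaks between 28849 and 67543 bp away in the WT libraries and 0 in cKO.

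Gene-end peaks in both cKO libraries and neither WT library were found at Ndufab1 and Ndufc1, 2.00% of the genes against 1.48% of all. Ndufab1 encodes the mitochondrial acyl carrier protein, which is also a complex I subunit. Its folds were 8.69 and 7.96, with 40 and 27 reads at the summit over a local background of 3.72 and 2.52. The summits lay 64 and 94 bp before the start. Ndufc1 encodes a small supernumerary subunit of complex I, and its folds were 4.19 and 3.34, with summits 75 and 69 bp before the start. For each library a detection limit was set, defined as the lowest fold that would still be called in that list at the median local background of its peaks. It was 3.53 and 3.01 in the WT libraries and 3.18 and 3.29 in the cKO libraries. The limit is not a floor, since peaks over a higher local background can be called below it. In cKO replicate 1 this was so for Sdhaf2 (2.93-fold) and Ndufaf3 (2.99-fold). Both Ndufab1 folds stood above both WT limits, whereas the lower Ndufc1 fold stood below the limit of WT replicate 1. With only 1 cKO library, 4 genes (without replicate 1) or 9 (without replicate 2) would have this pattern, against 3.26% and 4.96% of all genes.

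The reverse pattern, a gene-end peak in both WT libraries and neither cKO library, was found at Ndufv1 alone (1.00%, against 2.24% of all genes). Ndufv1 encodes the subunit of complex I that binds NADH and flavin mononucleotide. Its folds were 7.15 and 5.75, with summits 150 and 65 bp before the start, and both stood above the cKO limits. Without WT replicate 1 the count would be 2 (against 7.72% of all genes), without WT replicate 2 it would be 6 (against 3.90%) and without cKO replicate 2 it would be 2 (against 2.38%). Ndufv1 and Ndufv2, neighbours in the NADH-oxidising module, thus had different patterns.

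Gene-end peaks occurred in 2 or 3 libraries of mixed genotype at further genes, of which 4 are described. Atp5mpl, which encodes a small ATP synthase proteolipid, had one in WT replicate 2 (4.74-fold) and in cKO replicates 1 and 2 (6.04-fold and 6.88-fold). Ndufa6, whose product is an LYR-motif subunit that binds the acyl carrier protein, had 7.44-fold in WT replicate 2 and 4.92-fold in cKO replicate 2. Atp5o, the gene of the oligomycin sensitivity protein of the ATP synthase stalk, had 5.75-fold in WT replicate 1 and 4.04-fold in cKO replicate 1. Atp5k, the gene of the small membrane subunit e, had 5.46-fold in WT replicate 1 and 4.27-fold in cKO replicate 2.

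**Figure D3:**
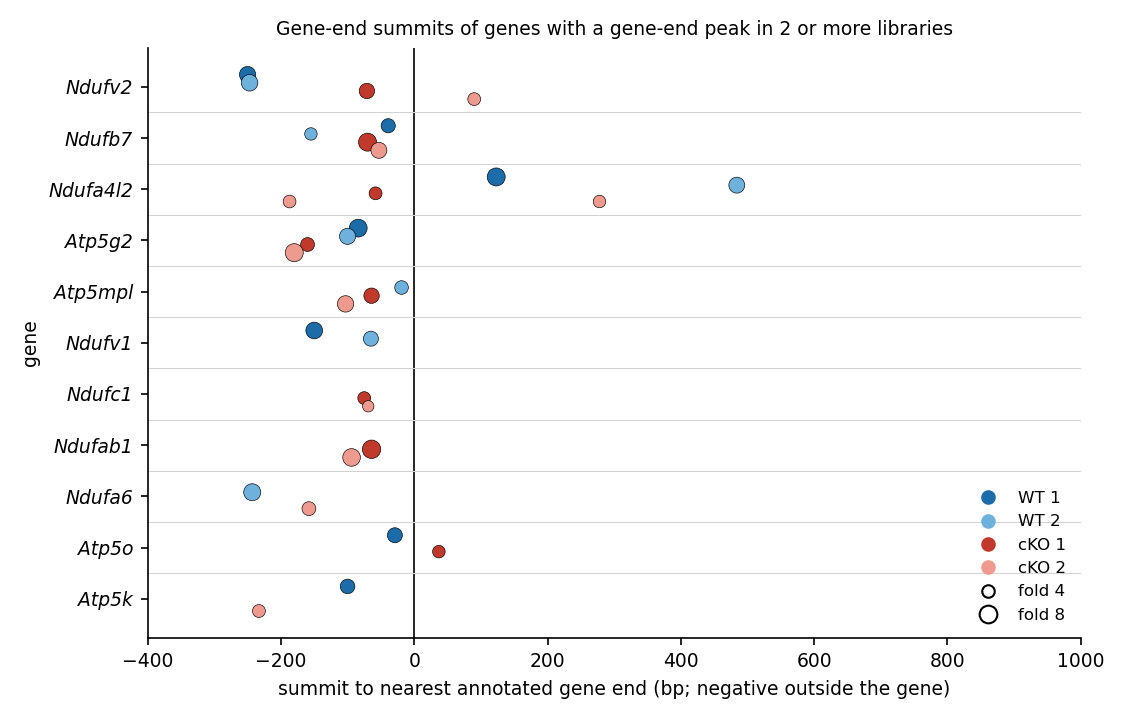
Distance of each gene-end summit from the nearest annotated end of the gene (bp, negative outside the gene) at 11 genes with a gene-end peak in at least 2 libraries; colours are the 4 ChIP libraries and the point area grows with fold enrichment. Apart from Ndufa4l2, every summit shown lies between 250 bp outside and 90 bp inside a gene.

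A gene-end peak in 1 library only was found at 15 further genes, named here after their values were seen. WT replicate 1 had 5 (Atp5g1, Cox7a2, Ndufa12, Ndufb8 and Ndufb9), WT replicate 2 had Ndufa5, and cKO replicate 2 had Atp5e and Cox8a. The other 7 were in cKO replicate 1: Atp5a1, Cox4i1, Ndufaf3, Ndufaf4, Sdhaf2, Sdhaf3 and Uqcrc1. Cox4i1, the gene of the widely expressed form of cytochrome oxidase subunit IV, had the highest fold of these 7 at 5.32. In all, the 50 gene-end peaks formed 27 sites, of which 15 were held by 1 library, 4 by all 4, 2 by both cKO libraries alone and 1 by both WT libraries alone.

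Gene-end peaks were mostly at starts. A RefSeq start was matched for 82 of the 100 genes, and for 36 of the 50 gene-end peaks. Of those 36, 35 lay within 1 kb of the start and 33 within 250 bp. The exception was Cox7a2, whose WT peak lay at -11508 bp from the listed start (negative before it), inside Tmem30a. Conversely, 1 WT and 3 cKO peaks counted away from annotated ends lay within 1 kb of a RefSeq start inside the gene, at Atp5d in WT and at Cox5a, Cox7a2 and Ndufa13 in cKO. For 14 of the 50 gene-end peaks, at 8 genes, another protein-coding gene also ends within 1 kb of the summit, so those peaks cannot be given to 1 gene alone. Among them are the 5 of Ndufa4l2, where Stac3 ends close by. The Sdhaf2 summit was 67 bp from an end of Sdhaf2 and 81 bp from an end of Cpsf7. The Ndufb9 summit was 83 bp from an end of Ndufb9 and 128 bp from an end of Tatdn1. Just outside the 1 kb border was a 4.03-fold Ndufa13 summit of cKO replicate 1, at 1046 bp, and inside it was the 6.51-fold Ndufa4l2 summit of WT replicate 2, at 484 bp.

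Away from gene ends, peaks in both WT libraries and neither cKO library were found at 8 genes (8%, against 11.8% of all protein-coding genes). They were Ndufs4, Ndufb4, Ndufa10, Ndufa11, Ndufv3, Ndufaf2, Atp5o and Atp5g3, the last with peaks at different places in the 2 WT libraries. The reverse was found at Sdhaf1 alone (1%, against 0.749%). Only Ndufa4l2 had such peaks in all 4 libraries (1%, against 2.77%). Ndufs4 encodes an accessory subunit of complex I that is mutated in Leigh syndrome. Its body held a peak of 9.39-fold in WT replicate 1 and 8.44-fold in WT replicate 2, on chromosome 13 at 114351557 to 114351857 and 114351380 to 114351876, 36391 and 36562 bp from its nearer end. WT replicate 2 held a further one there of 7.34-fold. The cKO libraries had 0 at Ndufs4.

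Atp5o had more peaks outside the gene in WT than any other of these genes. Besides its gene-end peak 29 bp out, WT replicate 1 held 2, and WT replicate 2 held 4. These lay in 2 groups, 15499 to 15914 and 31179 to 31871 bp outside the gene. The strongest pair, 31871 and 31766 bp out, had folds of 6.33 and 9.76. At Ndufb4, which encodes a membrane-arm subunit of complex I, each WT library held 2 peaks between 28975 and 30993 bp outside the gene, the highest of 7.36-fold and 6.35-fold. Ndufa11, the gene of a membrane-embedded subunit, had 7.84-fold and 4.87-fold peaks 5148 and 5100 bp out. A further one in WT replicate 2, 5695 bp out, was 5.24-fold. These distances do not show which gene a distal site acts on.

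Ndufa10, a matrix-facing subunit gene, had 1 and 3 peaks in WT replicates 1 and 2. Ndufaf2, an assembly factor gene, had 1 and 2, all in its body (5.61-fold in replicate 1 and 5.88-fold at the highest in replicate 2). Ndufv3 had 1 in each, 5.39-fold and 4.81-fold. Ndufa12, the subunit gene related to Ndufaf2, had 1 peak in each WT library but at different places, 4 bp outside its end in replicate 1 and 9484 bp out in replicate 2 (5.54-fold and 7.69-fold). All of these had 0 peaks in both cKO libraries. Sdhaf1, an assembly factor gene of complex II, had 1 peak in each cKO library, of 4.61-fold and 5.32-fold, but at sites 9813 and 14212 bp out that are not the same. Of the 43 WT peaks away from gene ends, 18 lay more than 10 kb outside a gene, against 1 of 12 in cKO. These counts pool the libraries of a genotype and take several peaks from single genes such as Atp5o and Ndufb4. They have no share over all genes beside them, so they do not mark a trait of respiratory chain genes. Counting only to 10 kb changed the log2 ratio of WT to cKO peaks away from ends from 1.84 to 1.18.

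Ndufa4l2 carried the most peaks of the 100 genes, 15 of 105 over the 4 libraries. It encodes the hypoxia-induced relative of Ndufa4, itself a subunit of complex IV. It had 5 and 3 peaks in WT and 4 and 3 in cKO, so the genotypes overlapped. The strongest lay in the gene body on chromosome 10 (127512800 to 127513241 over the 4 lists), with 8.75-fold and 6.86-fold in WT and 9.09-fold and 10.8-fold in cKO. In the cKO libraries 96 and 86 reads stacked there, over local backgrounds of 9.67 and 7.02, and in WT 20 and 23 over 1.40 and 2.50. The 2 cKO peaks were the highest of any respiratory chain gene in those lists. Without Ndufa4l2 the remaining genes had 24 and 33 peaks in WT and 18 and 15 in cKO. Ndufa4 itself had no peak in any library.

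By complex, the genes with any peak were counted beside the 43.9% of all protein-coding genes, and no difference between complexes was tested. Complex I had 3 of 7 core subunit genes, 17 of 32 supernumerary subunit genes and 4 of 8 assembly factor genes. The 4 subunit genes of complex II, Sdha, Sdhb, Sdhc and Sdhd, had no peak in any library. Its assembly factor genes Sdhaf1, Sdhaf2 and Sdhaf3 had 1 peak each in cKO replicate 1, Sdhaf1 also had 1 in cKO replicate 2, and none had a peak in WT. The Sdhaf2 peak (2.93-fold) was below both WT detection limits and the Sdhaf3 peak (3.22-fold) below that of WT replicate 1. In complex III 2 of 8 genes had a peak: Uqcrfs1, the Rieske iron-sulfur protein gene, in WT replicate 1 (4.50-fold), and Uqcrc1, a core protein gene, in cKO replicate 1 (4.41-fold). In complex IV 4 of 18 had a peak, Cox4i1, Cox5a, Cox7a2 and Cox8a, each library holding at most 2 of the 4. ATP synthase had 9 of 17. Atp5b and Atp5c1, genes of the catalytic beta and the central stalk gamma subunits, had none. Ndufb4b and Ndufb4c, copies of Ndufb4, also had none, and the sources used here do not say how reads from such copies were placed.

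The median fold of peaks at respiratory chain genes lay below that of all peaks in each list. Their median fold was 5.63 and 5.14 in the WT lists and 4.23 and 4.50 in the cKO lists. The medians of all peaks were 6.43, 5.40, 4.68 and 4.96. In 2 subsets the order was the other way: gene-end peaks of WT replicate 2 had a median of 6.51, and the 5 peaks away from ends of cKO replicate 2 a median of 5.32. In WT the highest respiratory chain peak reached 9.39-fold and 9.76-fold, in lists whose highest peaks were 228-fold and 101-fold. The reads at their summits had medians of 11 and 16.5 in WT and 22 and 19.5 in cKO, so many of the calls rest on few reads. The highest were 20 and 36 in WT and 96 and 86 in cKO. All 65 WT peaks at these genes stood above both cKO detection limits, and 34 of the 40 cKO peaks above both WT limits. Over all peaks the 5th percentile of fold was 4.22 and 3.58 in the WT lists. That is above both cKO limits, so nearly all WT peaks of any gene pass. In the cKO lists it was 3.29 and 3.37, below the limit of WT replicate 1. A site not called in the other genotype may still hold a weaker signal there.

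**Figure D4:**
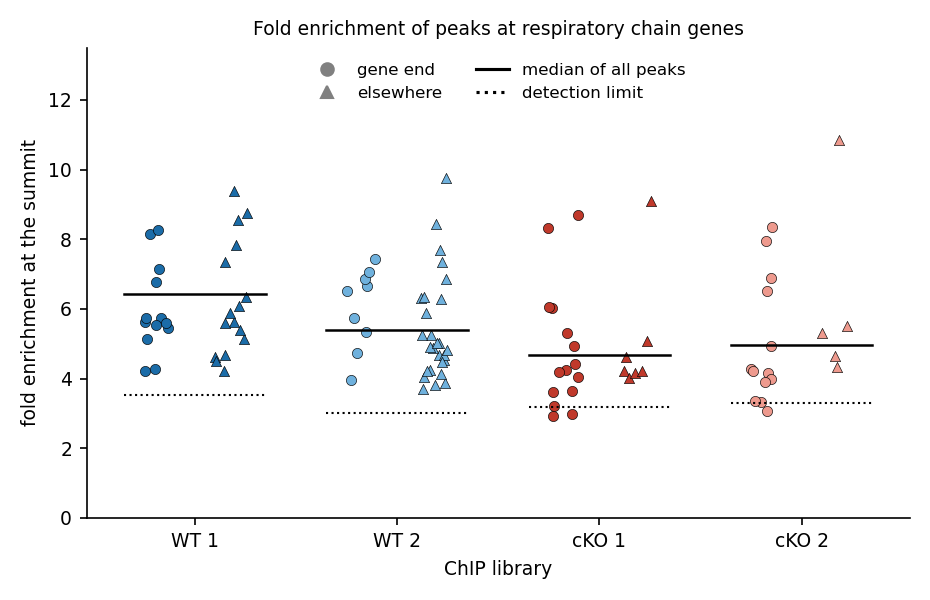
Fold enrichment at the summit of each peak at a respiratory chain gene, by ChIP library, with circles for gene-end peaks and triangles for the others; solid lines are the median of all peaks of that list and dotted lines its detection limit. In each library most points lie at or below the solid line, and the highest single points are 9.39, 9.76, 9.09 and 10.8.

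Length of the lists mattered for the comparison. When each list was cut to its 3088 most significant peaks, the number of the shortest list, the respiratory chain genes held 2 and 0 peaks in WT and 16 and 18 in cKO. Gene-end peaks were then 0 and 0 in WT and 10 and 13 in cKO. More peaks in both cKO libraries than in either WT library were then found at 9 genes (9%, against 4.83% of all), and the reverse at 0 genes (against 3.80%). This keeps 22.3% and 11.6% of the WT lists, 67.8% of that of cKO replicate 1 and 100% of that of cKO replicate 2. It therefore removes weaker peaks mostly from WT, and the counts do not show that binding differed in this direction.

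The 5 motifs were counted on both strands in the promoters of respiratory chain genes and in all promoters of the table. The table gave 87 promoters (250 bases before to 50 after a start) for 82 of the genes. The NRF1 consensus, which reads the same on both strands, was in 7 of the 87 (8.05%), against 0.971% of 32851 promoters of all kinds. CCGGAAG was in 25.3% against 8.86%, and AAGATGGC in 12.6% against 2.75%. GGGCGG was in 46.0% against 35.7% and CCAAT in 41.4% against 37.4%. Against promoters of protein-coding genes only, the shares to compare were 1.33% for the NRF1 letters, 11.6% for ETS, 3.05% for YY1, 46.2% for SP and 38.2% for CCAAT. Of the 22 promoters of genes with a gene-end peak in any library, 4 held the NRF1 letters, 6 the ETS letters and 14 the SP letters. Of the 65 others, 3, 16 and 26 did. CCAAT was in 5 of the 22 and 31 of the 65. These are descriptions of letters, and no difference between the groups was tested.

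Other genes of the pathway were counted in the same way. Of 35 assembly factor genes outside the symbol rule, 5 had more peaks in both WT libraries than in either cKO library (14.3%, background 15.7%): Nubpl, Cox10, Lyrm7, Uqcc1 and Coa7. Nubpl, which delivers iron-sulfur clusters to complex I, reached 27.6-fold and 22.8-fold in WT, above every peak of the 100 respiratory chain genes. The reverse was seen at Coa5 alone (2.86%, background 1.70%). The 14 electron carrier genes were those of cytochrome c, electron transfer flavoprotein and ubiquinone synthesis. Among them only Pdss2 had more peaks in both WT libraries than in either cKO library (7.14%, background 15.7%). Its counts were 2 and 7 in WT and 1 and 0 in cKO. Coq7 held gene-end peaks in both WT libraries (8.18-fold and 8.63-fold) and neither cKO library (7.14% of its list, background 2.24%). Away from its ends Coq7 also had a 5.07-fold peak in cKO replicate 1. Among 18 genes of pyruvate and citric acid cycle enzymes, 4 had more peaks in both WT libraries (22.2%, background 15.7%), among them Pcx, Pdhx and Suclg2. Pdhx, a pyruvate dehydrogenase component gene, had gene-end peaks of 5.78-fold and 14.7-fold in WT and none in cKO.

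Of 17 regulators of mitochondrial gene expression, Polg, the mitochondrial DNA polymerase gene, was the only one with more peaks in both WT libraries (10 and 12, against 5 and 3), which is 5.88% of the list against 15.7% of all genes. Nrf1, the gene of the respiratory factor, had a gene-end peak in both cKO libraries and neither WT library (5.88%, background 1.48%). Away from its ends Nrf1 also had a 5.75-fold peak in WT replicate 2. Ppargc1a, which encodes the coactivator PGC-1alpha, had 0 and 9 peaks in WT replicates 1 and 2 and 1 in each cKO library. The WT replicates thus disagreed at Ppargc1a, and its WT and cKO counts overlapped.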

How the data were processed

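Per the submitters' processing notes, FastQC, cutadapt, Bowtie2 2.2.8 and MACS2 2.1.1 were used with the mm10 build; settings and the control of each ChIP library are not given in the sources used here. Each ChIP library has its own narrowPeak list, deposited by the authors, so calling was done library by library. In the deposited lists each peak has a fold (a ratio to local background), a −log10 p-value, a −log10 q-value and a score, which is 10 times the −log10 q-value with decimals dropped. Folds are the authors' and describe peaks within a list; they were not tested between genotypes.

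Lines on unplaced contigs and other sequences outside chromosomes 1 to 19, X and Y were dropped (12 and 14 in WT, 37 and 19 in cKO). Summits were assigned to RefSeq genes (GRCm38.p6) as the report states, and a summit inside several genes counted for each. Reads at a summit and the local background were solved from fold and p-value with scipy 1.17.1, giving whole reads within 0.001 of the −log10 p-value for 99.9% to 100% of peaks. Start sites and promoter sequences came from RefSeq tables of the same build. The assignment was checked on simulated summits.

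The genes, lists and motifs were chosen with earlier results of these data known. Genes named were those with gene-end peaks in at least 2 libraries, the 10 highest folds per genotype, and up to 5 with the largest difference per direction (21 genes); 2 genes are not reported here by name but stay in all counts; others are named to complete a count, after their values were seen. Alternatives were a stricter q-value, equal-length lists, merging, other distances and windows, leaving out each library, and a replicate block; leaving out assembly factors or Ndufa4l2 was chosen after seeing the data.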

Additional observations from a re-analysis of the deposited data

How the results depend on the processing

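The log2 ratio of WT to cKO peaks was 0.70 at all 100 genes, -0.35 at gene ends and 1.84 away from them. Leaving out 1 library gave 0.54 to 0.85, -0.64 to -0.11 and 1.42 to 2.17. With lists of equal length the first and last reversed, to -4.09 and -2.46, and the gene-end ratio has no value, since both WT libraries held 0. Counted to 10 kb, they were 0.27 and 1.18. Under the other alternatives each ratio kept its sign; for gene ends it was -0.07 at a stricter q.

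Genes with more peaks in both WT libraries numbered 10, and 10 to 16 without 1 library; genes with more in both cKO libraries numbered 3, and 3 to 12. Gene-end peaks in both WT libraries alone were found at 1 gene, and 1 to 6 without 1 library; in both cKO libraries alone at 2, and 2 to 9; in all 4 libraries at 4, and 4 to 5. With lists of equal length these 5 counts were 0, 9, 0, 7 and 0, against 3.80%, 4.83%, 0.196%, 2.21% and 0.105% of all genes. The WT-alone gene-end count was 2 with a 2 kb window, and the cKO-alone count was 1 at the stricter q, where Ndufc1 left. An overlap of 50% of the shorter peak kept 3 of the 4 sites shared by all libraries.

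With a replicate block, setting WT replicate 1 against cKO replicate 1 and 2 against 2, the log2 ratios were 0.70, -0.37 and 1.81, and the counts 10, 3, 1, 2 and 4. The labels do not say whether the replicate numbers mark pairs. Over 9610 genes the replicate differences of WT and cKO had r = 0.02, and this correlation of sparse counts cannot settle it. The lists hold no read totals, and 7 to 36 reads in WT and 14 to 96 in cKO stand behind a respiratory chain peak, which limits what weak sites can show.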

Other observations

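Genes of the mitochondrial ribosome, the 78 protein-coding genes with symbols starting Mrpl or Mrps, were counted in the same way. The mitochondrial ribosome translates the few chain subunits encoded in mitochondrial DNA. In WT replicates 1 and 2, 1 and 5 of the 78 had a gene-end peak, and in cKO replicates 1 and 2, 9 and 8 did. Over all protein-coding genes the shares with one were 5.85% and 10.8% in WT and 8.02% and 5.53% in cKO. For the 78 genes both cKO counts lay above both WT counts. Peaks of any kind numbered 13 and 29 in WT and 13 and 16 in cKO, which overlap. Gene-end peaks in both cKO libraries and neither WT library were found at Mrpl17, Mrpl23 and Mrpl39 (3.85%, against 1.48% of all protein-coding genes), and in both WT libraries and neither cKO library at 0 (against 2.24%). Their folds were 6.46, 6.70 and 4.87 in cKO replicate 1 and 6.33, 3.53 and 5.90 in cKO replicate 2. Mrpl23 and Mrpl39 also had peaks away from their ends in WT replicate 2, of 4.67-fold and at most 6.34-fold. More peaks of any kind in both WT libraries than in either cKO library were found at Mrps6, Mrps23 and Mrps28 (3.85%, against 15.7%). These counts were seen before they were described, and no difference was tested.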
